A study of Mus musculus with 8 samples.

Results

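The matrix proteoglycans described here are 10 genes: Lum (lumican), Dcn (decorin), Bgn (biglycan), Fmod (fibromodulin), Ogn (osteoglycin), Aspn (asporin), Prelp, Omd (osteomodulin), Vcan (versican) and Hspg2 (perlecan). They were chosen by gene symbol, with earlier results of these data known, and each was read from its probe set in the deposited table. All 10 were measured, of 21626 genes in all. The arrays, from Affymetrix, held RNA from 4 mouse gastric adenocarcinomas and from 4 normal gastric mucosae. The adenocarcinomas were primary, spontaneous tumours of mice that carried a transgene and were frozen fresh. The labels give the normal samples as normal gastric mucosa only, and do not say whether those mice carried the transgene. The transgene, its promoter, the strain, the sex and the age are details the sources used here do not give. Since nothing says that the 8 samples came from separate animals, each p-value speaks only for the spread among these samples, and that spread may be technical.

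Small leucine-rich proteoglycans are secreted proteins built from leucine-rich repeats that carry chondroitin, dermatan or keratan sulfate chains or, in some members, few or no chains. Many of them bind collagen fibrils and set fibril spacing and thickness, and several also bind TGF-beta or other growth factors. Fibroblasts and smooth muscle cells are their main source in the connective tissue of the gut wall. Versican is a large chondroitin sulfate proteoglycan that binds hyaluronan in loose matrix, and perlecan is the large heparan sulfate proteoglycan of basement membranes.

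The values were log2 expression values, rounded to 1 decimal by the authors, so that a step of 1 is a 2-fold change. Different probe sets differ in brightness at the same RNA amount, so levels were compared between arrays for each gene and never between genes. The median of the background control probes, taken as the level of no signal, lay at 6.0 to 6.2 on adenocarcinoma arrays and at 6.2 to 6.4 on normal arrays. Exon controls exceeded intron controls by a median of 3.9 to 4.5 on adenocarcinoma arrays and of 3.6 to 4.0 on normal arrays. Markers of gastric parietal and chief cells, which should mark the mucosa, fell in the adenocarcinomas for 6 of 6 genes, and their summed log2 level was 10.73 to 13.37 in the tumours and 15.68 to 15.92 in normal mucosa. Genes that mark sex also separated the groups. Xist, expressed from the inactive X chromosome, read 6.2 to 6.6 in the tumours and 11.6 to 12.7 in normal mucosa, and the Y-linked Eif2s3y read 9.2 to 11 in the tumours and 5.1 to 5.3 in normal mucosa. Sex and tissue state therefore cannot be told apart in these arrays.

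The question was how expression of the proteoglycan genes in the tumours compares with that in normal mucosa. Of the 10 genes, 8 rose in adenocarcinoma, 0 fell and 2 (Ogn and Omd) were not called, by limma with a Benjamini-Hochberg adjusted p under 0.05 over all genes (0 were lower at an unadjusted p under 0.05 as well). Over all 21626 genes, 18.2% were called higher and 23.6% lower, 41.8% in either direction. In the same 8 genes every adenocarcinoma lay above every normal sample, which held for 15.8% of all genes. All 8 were also called higher by at least 2-fold, as were 6.63% of all genes. The median log2 difference was 2.65 over the 10 proteoglycans and -0.10 over all genes. Since the list was chosen with earlier results of these data known, the shares over all genes are a description and not a test of the list. The split of calls over all genes moved with the scaling: it was 3942 higher and 5099 lower as deposited, 3054 and 9272 after median centring, 3923 and 3239 after cyclic loess, and 4796 and 1700 after centring on olfactory and vomeronasal receptor genes, while the 8 proteoglycans stayed called higher in each. In bulk tissue, a larger number of cells of a type and more RNA per cell cannot be told apart.

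**Figure D1:**
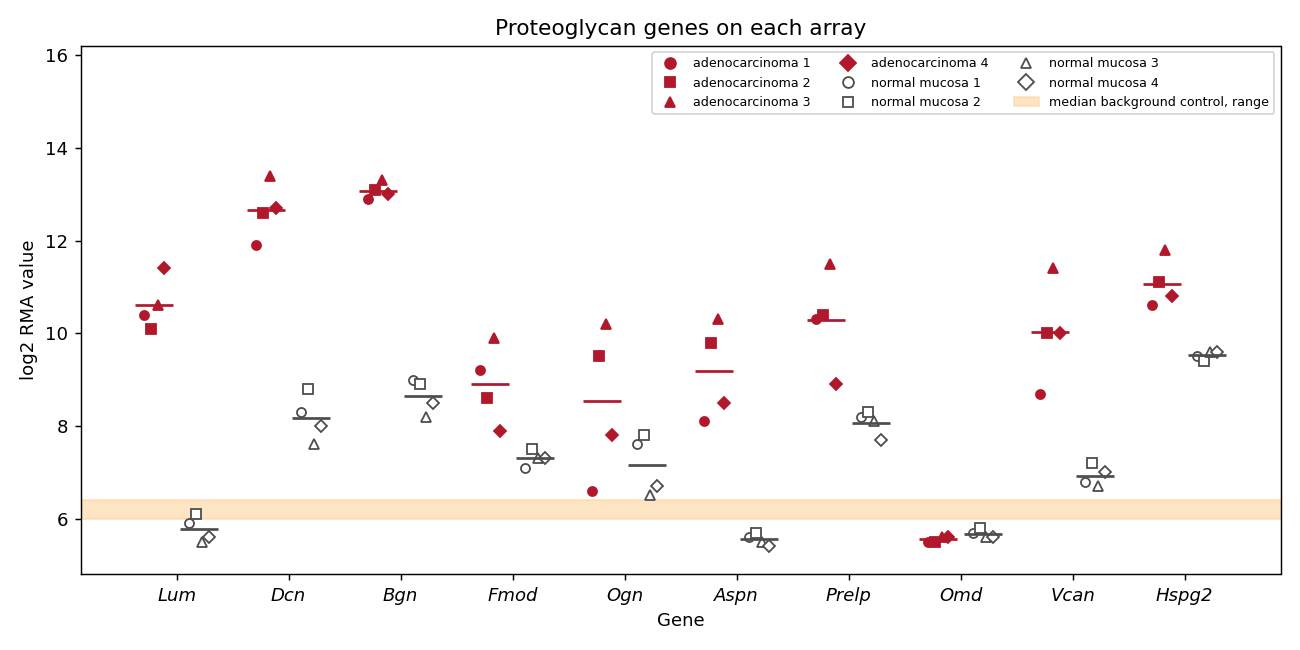
Log2 RMA value of each of the 10 proteoglycan genes on each of the 8 arrays, with adenocarcinoma (filled) left of normal mucosa (open), lines for group means and a band for the range of the background control medians. The groups do not overlap for 8 genes, overlap for Ogn, and lie together below the band for Omd.

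Among the class I small leucine-rich proteoglycans, decorin, biglycan and asporin all rose. Dcn, whose product coats collagen fibrils and binds TGF-beta, read 11.9, 12.6, 13.4 and 12.7 in adenocarcinomas 1 to 4, against 8.3, 8.8, 7.6 and 8.0 in normal mucosa. The lowest adenocarcinoma thus stood 3.1 above the highest normal sample. Dcn averaged 12.65 ± 0.614 across adenocarcinomas and 8.18 ± 0.506 across normal samples (SD, n = 4 each), a log2 difference of 4.47 ± 0.33 (SE), or 22.2-fold, with a limma adjusted p of 1.99e-05. Bgn, whose product is the close relative of decorin that also signals through Toll-like receptors, read 12.9, 13.1, 13.3 and 13.0 in adenocarcinoma, against 9.0, 8.9, 8.2 and 8.5 in normal mucosa. The adenocarcinomas were nearly level with one another, and the gap to the highest normal sample was 3.9. Bgn averaged 13.07 ± 0.171 across adenocarcinomas and 8.65 ± 0.37 across normal samples (SD, n = 4 each), which gave a log2 difference of 4.42 ± 0.179 (SE), or 21.5-fold, with a limma adjusted p of 5.91e-07. Bgn lies on the X chromosome, and the groups differ in the markers of sex given above, whose part in the Bgn difference cannot be told apart from that of the tumour.

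Asporin, a class I member with an aspartate-rich stretch that binds collagen and TGF-beta, read 8.1, 9.8, 10.3 and 8.5 in adenocarcinoma, against 5.6, 5.7, 5.5 and 5.4 in normal mucosa. All 4 normal samples were at or below the background controls, and adenocarcinomas 2 and 3 were well above 1 and 4. Its mean was 9.18 ± 1.04 across adenocarcinomas and 5.55 ± 0.129 across normal samples (SD, n = 4 each). Since the normal level is bounded by background, the rise is given as at least 7.46-fold, beside a measured log2 difference of 3.62 ± 0.432 (SE) with a limma adjusted p of 0.000309.

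The class II members Lum, Fmod and Prelp rose as well, while Omd stayed at background. Lumican, a keratan sulfate proteoglycan that regulates collagen fibrils, read 10.4, 10.1, 10.6 and 11.4 in adenocarcinoma, against 5.9, 6.1, 5.5 and 5.6 in normal mucosa. Every normal sample was at or below background, so the rise of Lum is given as at least 20.4-fold. Its mean was 10.62 ± 0.556 across adenocarcinomas and 5.78 ± 0.275 across normal samples (SD, n = 4 each), a measured log2 difference of 4.85 ± 0.261 (SE) with a limma adjusted p of 3.23e-06. Its bound, 4.35 on the log2 scale, lies below the differences of Dcn and Bgn, so no order among the 3 is given. Of all 21626 genes ordered from the largest rise, Dcn stood at rank 16 and Bgn at rank 21.

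Fibromodulin, a collagen-binding keratan sulfate proteoglycan, read 9.2, 8.6, 9.9 and 7.9 in adenocarcinoma, against 7.1, 7.5, 7.3 and 7.3 in normal mucosa. The groups were separated by 0.4 only, between adenocarcinoma 4 and normal sample 2. Fmod averaged 8.90 ± 0.852 across adenocarcinomas and 7.30 ± 0.163 across normal samples (SD, n = 4 each). The log2 difference was 1.60 ± 0.359 (SE), or 3.03-fold, with a limma adjusted p of 0.00832. Prelp, which binds collagen and heparan sulfate through an arginine- and proline-rich end, read 10.3, 10.4, 11.5 and 8.9 in adenocarcinoma, against 8.2, 8.3, 8.1 and 7.7 in normal mucosa. Adenocarcinoma 4 was again the lowest of its group and still lay 0.6 above the highest normal sample. It averaged 10.28 ± 1.07 across adenocarcinomas and 8.07 ± 0.263 across normal samples (SD, n = 4 each). The log2 difference of Prelp was 2.20 ± 0.451 (SE), or 4.59-fold, with a limma adjusted p of 0.00547.

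Omd, known from bone matrix, read 5.5, 5.5, 5.6 and 5.6 in adenocarcinoma, against 5.7, 5.8, 5.6 and 5.6 in normal mucosa. All 8 values were at or below background, so no fold is given. The log2 difference was -0.12 ± 0.0832 (SE), with a 95% interval of -0.31 to 0.06 and a limma adjusted p of 0.242. Of 9 markers of cartilage and bone, 1 was higher and 3 were lower (1 to 4 lower over the scalings), beside 18.2% and 23.6% of all genes. Their summed log2 level was 10.97 to 12.09 in the tumours and 10.85 to 11.13 in normal mucosa.

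Osteoglycin, the class III member of the set, was the most uneven. Ogn read 6.6, 9.5, 10.2 and 7.8 in adenocarcinoma, against 7.6, 7.8, 6.5 and 6.7 in normal mucosa. Adenocarcinomas 2 and 3 stood above every normal sample, adenocarcinoma 4 matched the highest normal one, and adenocarcinoma 1 lay below 3 of the 4. The SD between adenocarcinomas was 1.63, larger than that of 99.6% of all genes. The log2 difference was 1.38 ± 0.715 (SE), with a 95% interval of -0.24 to 2.99 and a limma adjusted p of 0.144, so a difference was not shown. It ranged from 0.82 without adenocarcinoma 3 to 2.02 without adenocarcinoma 1, and passed the threshold in that last setting (adjusted p 0.0225, limma) and with array weights, at 1.74 (adjusted p 0.0324, limma).

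The large proteoglycans rose too. Versican read 8.7, 10, 11.4 and 10 in adenocarcinoma, against 6.8, 7.2, 6.7 and 7.0 in normal mucosa. Even the lowest adenocarcinoma was 1.5 above the highest normal sample, and adenocarcinoma 3 stood above the rest of its group. The mean of Vcan was 10.03 ± 1.1 across adenocarcinomas and 6.92 ± 0.222 across normal samples (SD, n = 4 each). Vcan had a log2 difference of 3.10 ± 0.461 (SE), or 8.57-fold, with a limma adjusted p of 0.00104. Perlecan read 10.6, 11.1, 11.8 and 10.8 in adenocarcinoma, against 9.5, 9.4, 9.6 and 9.6 in normal mucosa, with the normal samples within 0.2 of one another. The mean of Hspg2 was 11.07 ± 0.525 across adenocarcinomas and 9.53 ± 0.0957 across normal samples (SD, n = 4 each). Hspg2 had a log2 difference of 1.55 ± 0.227 (SE), or 2.93-fold, with a limma adjusted p of 0.000948.

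**Figure D2:**
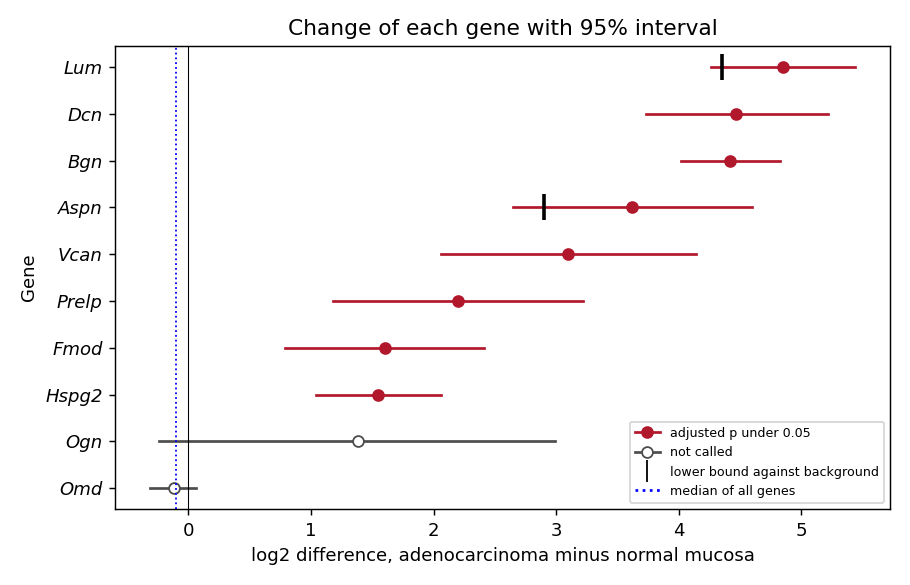
Log2 difference, adenocarcinoma minus normal mucosa, of the 10 proteoglycans, with 95% intervals from limma, a vertical tick for the lower bound against background (Lum and Aspn) and a dotted line for the median of all genes. Lum, Dcn and Bgn lie furthest to the right, the bound of Lum lies left of the points of Dcn and Bgn, and the intervals of Ogn and Omd include 0.

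The adenocarcinomas varied more than the normal samples in 8 of the 10 genes. The median SD over the 10 genes was 0.733 between adenocarcinomas and 0.242 between normal samples, beside 0.189 and 0.129 over all genes. Biglycan and Omd were the exceptions. The share of all genes with a larger SD in adenocarcinoma was not computed, so the 8 of 10 has no such share beside it. For Lum and Aspn the SD between normal samples is that of values at or below background, as are both SDs of Omd. Among the 8 genes that rose, adenocarcinoma 3 held the highest value on its own in 7, with Lum highest in adenocarcinoma 4. Of all genes called higher, 25.8% had their highest value in adenocarcinoma 3 alone and 18.4% in adenocarcinoma 4 alone. Adenocarcinoma 1 held the lowest value on its own in 5 of the 8 genes, beside 30.3% of all genes called higher.

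**Figure D3:**
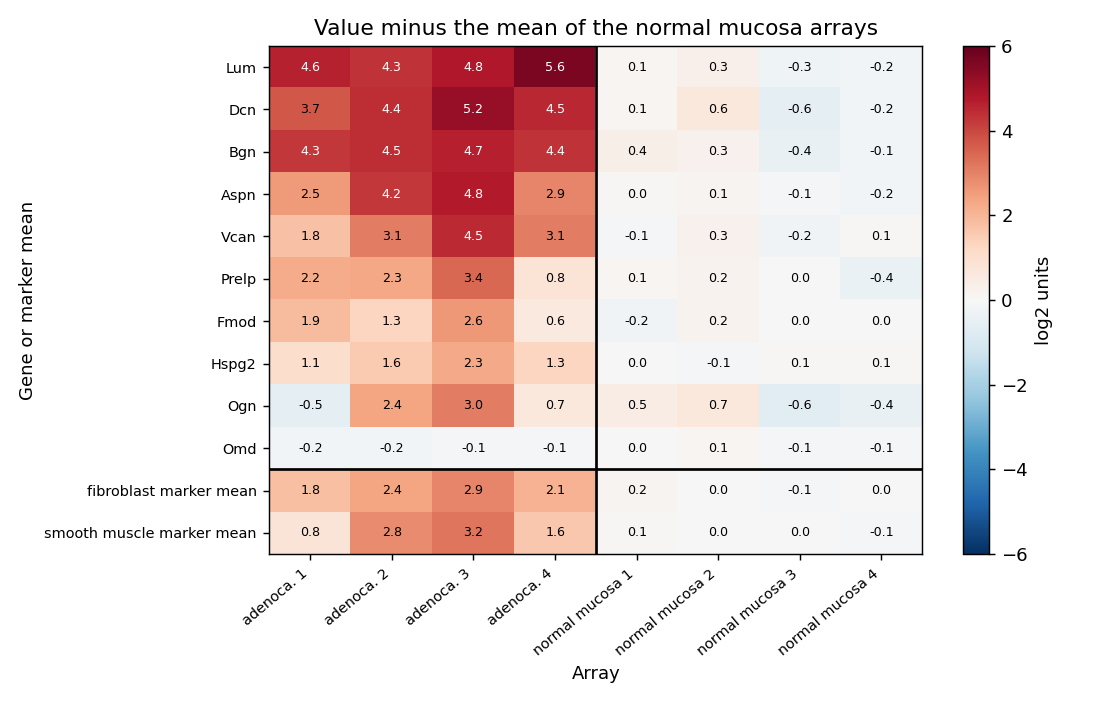
Difference of each array from the normal mucosa mean (log2) for the 10 proteoglycans and for the means of the fibroblast and smooth muscle markers, with adenocarcinomas left of normal samples and red for higher values. Adenocarcinoma 3 is high for most genes, adenocarcinoma 1 is low for Ogn, Aspn and Vcan, and Bgn is nearly level across the 4 adenocarcinomas.

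Asporin, Omd and Ogn are neighbours on mouse chromosome 13, in this order, and Ecm2, another leucine-rich matrix gene, is listed beside them. In the deposited table, Aspn was placed at chr13:49639856-49662934, Omd at chr13:49678116-49688191 and Ogn at chr13:49703415-49719869, all on the plus strand, in a build that no source used here names. Ecm2 also rose, with values of 6.4, 6.9, 7.3 and 6.1 in adenocarcinoma and of 5.8, 5.6, 5.4 and 5.5 in normal mucosa. All 4 normal samples and adenocarcinoma 4 were at or below background, so no fold is given. The means were 6.67 in adenocarcinoma and 5.58 in normal mucosa, a measured log2 difference of 1.10 ± 0.237 (SE) with a limma adjusted p of 0.00694. The same table placed Dcn at chr10:96945001-96980785, Lum at chr10:97028437-97035337, Prelp at chr1:135806855-135817954, Fmod at chr1:135934092-135944854, Vcan at chr13:89796661-89881923, Hspg2 at chr4:137024736-137126544 and Bgn at chrX:70728962-70741735. Of these 4 neighbouring genes on chromosome 13, Aspn and Ecm2 rose, Ogn was uneven and Omd stayed at background. Lum and Dcn lie together on chromosome 10 with Kera (keratocan), which lay close to background at 6.0 to 6.1 in the tumours and 6.3 to 6.4 in normal mucosa, a log2 difference of -0.30 (limma adjusted p 0.0138) that was not called after cyclic loess (adjusted p 0.268) or centring on receptor genes (adjusted p 0.254). Epyc, on the same stretch, differed by 0.05 (limma adjusted p 0.766), and the chromosome 1 gene Optc beside Prelp and Fmod by -0.10 (limma adjusted p 0.483).

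Promoter sequences from RefSeq (GRCm38.p6) are the 150 bases before the annotated start. They are shown for the neighbours Aspn, Omd and Ogn, whose changes differed, and for Bgn, Vcan and Hspg2, which rose. The windows of Fmod and Prelp, which rose as well, are not shown. Capitals mark copies of the GC box GGGCGG or its complement on either strand, and copies may overlap, as 2 do in Bgn. RefSeq promoter windows were found for 8 of the 10 genes; Lum and Dcn were not matched. Asporin is at chr13:49544293-49544442, plus strand:
Aspn: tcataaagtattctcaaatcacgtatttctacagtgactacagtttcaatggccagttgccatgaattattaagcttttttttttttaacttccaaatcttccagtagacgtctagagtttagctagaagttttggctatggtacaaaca
The window of Omd is at chr13:49582312-49582461, plus strand:
Omd: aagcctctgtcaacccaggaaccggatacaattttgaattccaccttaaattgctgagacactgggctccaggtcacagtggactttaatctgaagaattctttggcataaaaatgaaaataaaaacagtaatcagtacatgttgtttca
The window of Ogn is at chr13:49607865-49608014, plus strand:
Ogn: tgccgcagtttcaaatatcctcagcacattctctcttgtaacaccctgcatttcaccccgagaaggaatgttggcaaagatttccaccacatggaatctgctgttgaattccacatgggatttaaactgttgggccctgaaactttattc
Biglycan is at chrX:73483451-73483600, plus strand:
Bgn: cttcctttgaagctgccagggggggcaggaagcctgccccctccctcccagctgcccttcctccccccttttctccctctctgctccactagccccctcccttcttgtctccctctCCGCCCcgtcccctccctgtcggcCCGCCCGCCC
Versican is at chr13:89742513-89742662, minus strand:
Vcan: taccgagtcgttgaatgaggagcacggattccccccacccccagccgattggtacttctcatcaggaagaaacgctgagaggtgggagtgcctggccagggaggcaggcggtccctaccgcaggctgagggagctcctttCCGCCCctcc
Perlecan is at chr4:137468653-137468802, plus strand:
Hspg2: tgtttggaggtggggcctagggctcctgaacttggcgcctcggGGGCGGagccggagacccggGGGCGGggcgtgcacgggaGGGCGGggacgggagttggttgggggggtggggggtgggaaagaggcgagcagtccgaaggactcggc

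The GC box was found in 3 of the 8 promoters, with 3 copies in Bgn, 3 in Hspg2 and 1 in Vcan, against 28.6% of 32851 promoter windows in the same reference. The TATA box TATAAA, the AP-1 site TGANTCA and the E-box CACCTG bound by ZEB and SNAI factors were found in 0 of the 8, against 7.57%, 4.24% and 10.6% of all windows. The windows of the neighbours Aspn, Omd and Ogn were poor in G and C, at 33.3%, 38% and 44%, beside a median of 54% over all windows. Bgn was at 70%, Hspg2 at 73.3% and Vcan at 63.3%. Fmod (49.3%) and Prelp (56%), which rose as well, held no GC box, nor did Aspn. A match is a run of letters and does not show that a factor binds there.

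Within each array, the values of 2 members can be subtracted, and a change of that difference between groups shows unequal change. For 7 pairs, an exact two-sided permutation test over 70 assignments of the arrays was used, whose smallest p is 0.0286, with adjustment over the 7 pairs. The Ogn minus Aspn difference was -1.5, -0.3, -0.1 and -0.7 in adenocarcinoma, against 2.0, 2.1, 1.0 and 1.3 in normal mucosa, a shift of -2.25 (exact permutation p 0.0286, adjusted p 0.0667). The groups did not overlap in it. Vcan minus Hspg2 shifted by 1.55 with the same exact p and adjusted p, and Aspn minus Omd by 3.75. Omd was at or below background on all 8 arrays and Aspn and Lum on the 4 normal arrays, so the shifts of the 4 pairs that hold them are measured values and not sizes of a change in RNA. For Bgn minus Dcn the shift was -0.05 (exact permutation p 0.971), and for Lum minus Dcn 0.38 (exact permutation p 0.4). Fmod minus Prelp shifted by -0.60 (exact permutation p 0.0857) and Ogn minus Omd by 1.5 (exact permutation p 0.143). None of the 7 pairs passed after adjustment (3 had an unadjusted exact permutation p under 0.05). At least 5 pairs would have to reach the smallest p for any to pass, so the 3 whose groups did not overlap could not pass whatever their size.

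Most markers of fibroblasts, smooth muscle, endothelium and pericytes were also higher in the tumours. Of 12 fibroblast markers 10 rose and 0 fell, and their summed log2 level was 14.18 to 15.14 in the tumours and 12.17 to 12.57 in normal mucosa. Over all genes, 18.2% were called higher and 23.6% lower. Of 10 smooth muscle markers 7 rose (5 after cyclic loess), at 12.76 to 15.07 in the tumours and 11.31 to 11.42 in normal mucosa. In adenocarcinoma 1, Acta2 (11.8), Tagln (9.7), Des (8.8) and Actg2 (8.6) lay above every normal sample, and Myh11 (8.3) just above them. Cnn1 (8.1), Synpo2 (7.7), Smtn (9.2), Lmod1 (7.7) and Myocd (6.9) did not lie above every normal sample there. Endothelial markers rose for 7 of 8 genes (12.58 to 13.68 in adenocarcinoma, 10.47 to 10.56 in normal mucosa) and pericyte markers for 5 of 6 (12.20 to 13.62 in adenocarcinoma, 11.76 to 12.23 in normal mucosa). None of these markers was at background on all 8 arrays, but the fibroblast marker Fap was at or below it on the 4 normal arrays. Of 5 mesothelium markers 1 rose (2 after centring on receptor genes). This was Msln, by 4.38 on the log2 scale, which carried most of the summed level of 12.03 to 13.22 in the tumours, against 9.97 to 10.23 in normal mucosa, while Upk3b, Wt1, Lrrn4 and Upk1b were not called (-0.15 to 0.80). Adipocyte markers fell for 1 of 5, at 10.03 to 11.60 in the tumours and 12.10 to 12.57 in normal mucosa. Markers of enteric glia, neurons and interstitial cells of Cajal fell for 1 of 8 (0 after cyclic loess or centring on receptor genes), at 12.30 to 12.60 in the tumours and 12.12 to 12.41 in normal mucosa. The part of these cell types in the proteoglycan changes was not tested.

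To show whether a member changed by more or less than fibroblast genes, the mean of the 12 fibroblast markers was subtracted within each array. The markers were Col1a1, Col1a2, Col3a1, Pdgfra, Pdgfrb, Thy1, Fap, Pdpn, Postn, Fbln1, Mfap5 and Dpt. Of these, Fbln1 (-0.60) and Dpt (1.02) were not called. Fap was at or below background on the 4 normal arrays, so its part in the normal marker mean is bounded by background. The marker mean was 10.01, 10.56, 11.12 and 10.26 in adenocarcinoma, against 8.36, 8.16, 8.11 and 8.16 in normal mucosa, a difference of 2.29 (exact permutation p 0.0286). After subtraction, the groups differed by 2.56 for Lum, 2.19 for Dcn, 2.14 for Bgn and 1.34 for Aspn, while Hspg2 differed by -0.74 and Omd, which is at background, by -2.41. Each of these 6 had an exact permutation p of 0.0286, the smallest the design allows, and an adjusted p of 0.0476 over the 10 members. For Lum and Aspn, whose normal values are bounded by background, these are measured differences. The value of Omd mirrors the rise of the marker mean, and with Omd left out, an alternative added after seeing the data, the other 5 had an exact permutation adjusted p of 0.0514 over 9 members and 0 passed. Vcan (0.81, exact permutation adjusted p 0.122), Fmod (-0.69, adjusted p 0.25), Ogn (-0.91, adjusted p 0.254) and Prelp (-0.09, adjusted p 0.943) did not pass. Since 6 of the 10 must reach the smallest p for any to pass, the calls are lost together when 1 member no longer reaches it: 0 passed with the median of the markers or without normal sample 1, 3 or 4, and 7 passed without adenocarcinoma 1. With the median of the markers the differences were 2.25 for Lum, 1.88 for Dcn, 1.82 for Bgn, 1.02 for Aspn and -1.05 for Hspg2, and without normal sample 1 they were 2.55, 2.17, 2.20, 1.30 and -0.80 in the same order. Hspg2 followed the fibroblast mean closely among the adenocarcinomas, at 0.59, 0.54, 0.68 and 0.54 above it in adenocarcinoma and at 1.14, 1.24, 1.49 and 1.44 above it in normal mucosa.

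**Figure D4:**
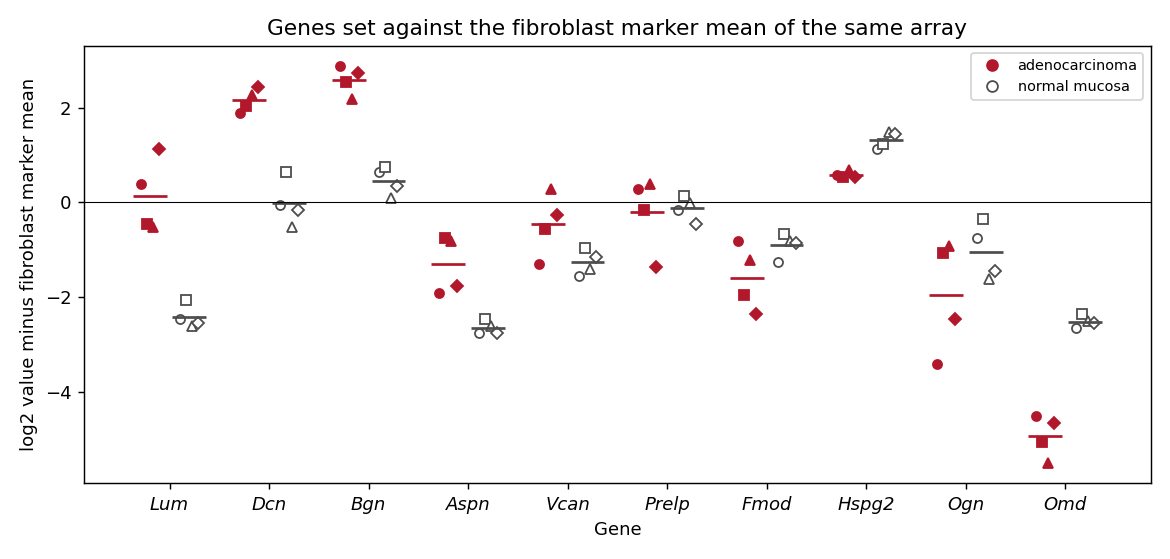
Log2 value of each proteoglycan minus the mean of 12 fibroblast markers on the same array, with adenocarcinoma (filled) left of normal mucosa (open), 1 symbol shape per replicate number and lines for group means. For Lum, Dcn, Bgn and Aspn every adenocarcinoma lies above every normal sample, and for Hspg2 and for Omd, which is at background, every adenocarcinoma lies below.

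The mean of the 10 smooth muscle markers was 8.68, 10.76, 11.11 and 9.52 in adenocarcinoma, against 7.99, 7.88, 7.93 and 7.85 in normal mucosa, a difference of 2.10 (exact permutation p 0.0286). Among the adenocarcinomas this mean was lowest in 1, then 4, 2 and 3. The fibroblast mean, Ogn, Aspn and Hspg2 ran in the same order, so the order does not tell both marker sets apart. After it was subtracted, Aspn was -0.58, -0.96, -0.81 and -1.02 in adenocarcinoma and -2.39, -2.18, -2.43 and -2.45 in normal mucosa. The SD of Aspn between adenocarcinomas was 1.04 as deposited, 0.196 after the smooth muscle mean was subtracted and 0.607 after the fibroblast mean was. For Ogn it was 1.63 as deposited, 0.513 against smooth muscle and 1.19 against fibroblasts. For Lum it was 0.556 as deposited, 1.38 against smooth muscle and 0.787 against fibroblasts, so both subtractions widened the spread of Lum. Against fibroblasts and smooth muscle in turn, it was 0.0668 and 0.694 for Hspg2, 0.245 and 0.681 for Dcn, and 0.306 and 0.966 for Bgn. For Fmod it was 0.701 and 1.16, for Prelp 0.801 and 1, and for Omd, at background, 0.452 and 1.11. Vcan had 0.664 against fibroblasts and 0.545 against smooth muscle. Most members thus spread less against fibroblasts, unlike Aspn, Ogn and Vcan. These SDs were not tested against each other. The groups differed by 2.75 for Lum, 2.37 for Dcn, 2.32 for Bgn and 1.52 for Aspn after subtraction, and by -0.73 for Ogn. The exact permutation adjusted p was 0.0571 for Lum, Dcn, Bgn and Aspn and 0.204 for Ogn, and 0 of the 10 members passed. An unadjusted exact permutation p under 0.05 was reached by 5 members: Lum, Dcn, Bgn, Aspn and Omd, the last at background. At least 6 would have to reach the smallest p for any to pass, so these 5 could not pass whatever their size. With the median of the smooth muscle markers 6 passed, as did 6 without adenocarcinoma 2 and 7 without adenocarcinoma 1. The part of smooth muscle and fibroblasts in these values was not tested.

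The other members of the family did not rise as a group. Beside the counts of this and the following lists, 18.2% of all genes were called higher and 23.6% lower. Of 11 other small leucine-rich proteoglycans, 2 rose (Ecm2, and Podn by 0.57) and 3 fell, among them Tsku, a secreted modulator of Wnt and TGF-beta signals (-0.60), and Nyx (-0.35). Their median was -0.23, and after centring on receptor genes 0 were lower, so the falls depend on the scaling. Of 18 other matrix proteoglycans and link proteins, 5 rose and 2 fell. Srgn (serglycin), the granule proteoglycan of blood cells, rose by 4.03 ± 0.213 (SE), with values of 12.6, 12.7, 13.1 and 13.0 in adenocarcinoma and of 9.2, 8.9, 8.2 and 9.0 in normal mucosa. Prg4 (lubricin) rose by 2.05 ± 0.699 (SE), at 6.5, 9.9, 9.8 and 7.4 in adenocarcinoma and 6.4, 6.3, 6.3 and 6.4 in normal mucosa, so adenocarcinomas 2 and 3 carried most of the rise. The falls of Bcan (-0.33) and Hapln3 (-0.30) were not called after cyclic loess or centring on receptor genes.

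Cell-surface proteoglycans rose in 9 of 13 genes and fell in 1, with a median of 0.75. Gpc3 (glypican) rose by 1.57 and the syndecan Sdc3 by 1.43, while Cspg5 fell (-0.50). Enzymes that make chondroitin and dermatan sulfate chains, which Dcn, Bgn and Vcan carry, rose in 12 of 16 genes and fell in 1. Chst11, a chondroitin 4-sulfotransferase, rose by 2.70, and Dse, which converts glucuronic to iduronic acid to make dermatan sulfate, by 1.70, while Chst3, a chondroitin 6-sulfotransferase, fell (-1.85). The heparan sulfate enzymes rose in 7 of 22 genes and fell in 6, where the share of falls was near the 23.6% over all genes. Sulf1, which removes 6-O-sulfates, rose by 3.45 and Hs2st1 by 1.43, whereas Hs3st3b1 (-2.52) and Ndst1 (-0.53), both sulfotransferases, fell. Counts of falls in this group ran from 1 to 7 over the scalings, and Ndst1 was not called after centring on receptor genes.

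Enzymes of keratan sulfate, which Lum and Fmod carry in some tissues, rose in 2 of 7 genes (B4galt4 by 1.15 and Chst2 by 1.07) and fell in 3 (among them B3gnt2, -0.85, and B3gnt7, -0.65). Enzymes that build the shared linker and supply sulfate rose in 2 of 10 genes, Xylt2 by 0.78 and Xylt1 by 0.47, and fell in 2, Papss2 (-1.30) and Fam20b (-0.57). Both counts were near the shares over all genes. Xylt1 was not called after median centring or cyclic loess, nor Fam20b and B3gnt7 after centring on receptor genes. Genes that make, cleave or bind hyaluronan, the polysaccharide that Vcan binds, rose in 6 of 17 and fell in 4. The share of falls was near the 23.6% over all genes, and 0 were lower after cyclic loess or centring on receptor genes. Cd44, a hyaluronan receptor, rose by 3.98 and Has2, a hyaluronan synthase, by 2.25. The falls of Hyal3 (-0.40) and Stab2 (-0.38) were not called after cyclic loess or centring on receptor genes.

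Proteases that cleave proteoglycans rose in 14 of 20 genes and fell in 2, with a median of 1.30. Mmp2 rose by 4.03 and Ctss (cathepsin S) by 3.70, while Adamts15 (-1.02) and Adamts8 (-0.42) fell. Fibrillar collagen partners rose in 13 of 16 genes, led by Col12a1 (4.62) and Fn1 (4.45), and 1 fell, Col11a2 (-0.28). Neither Adamts8 nor Col11a2 was called after centring on receptor genes. The basement membrane partners of perlecan rose in 15 of 18 and fell in 0 (by limma; 1 was lower at an unadjusted p under 0.05), led by Sparc (4.12) and Nid1 (3.62). Receptors and ligands that bind proteoglycans rose in 13 of 19 and fell in 1: Itga2 rose by 4.28 and Ctgf by 3.90, and Tlr4, a receptor of biglycan, fell (-0.80). The other Toll-like receptor listed, Tlr2, rose by 0.45, but was not called after median centring or cyclic loess. All of these values are log2 differences from limma, with adjusted p under 0.05 as deposited.

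**Figure D5:**
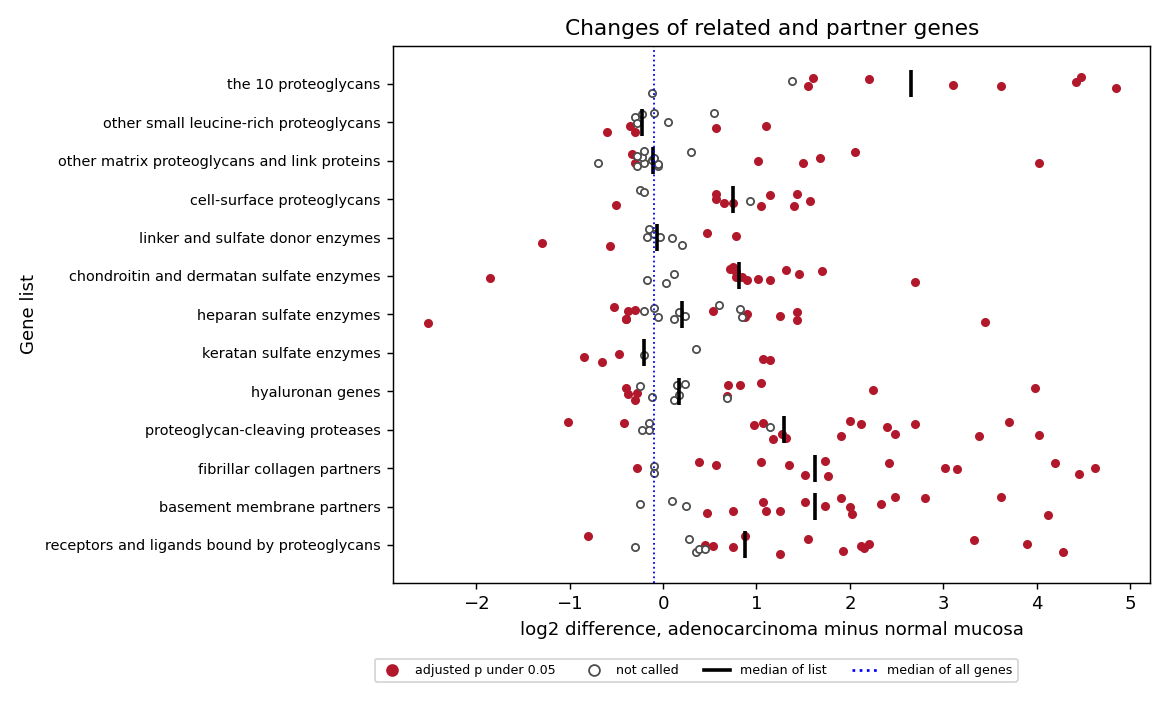
Log2 difference, adenocarcinoma minus normal mucosa, of the 10 proteoglycans and of 12 lists of related genes, with filled points for genes called by limma, open points for genes not called, a bar for the list median and a dotted line for the median of all genes. The basement membrane, collagen and protease lists have the highest medians after the 10 proteoglycans.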

How the data were processed

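RNA of 4 gastric adenocarcinomas and 4 normal gastric mucosa samples was extracted with a Qiagen kit and hybridised with biotin label to Affymetrix arrays, per the labels' protocols. Per the submitters' processing notes, the authors used RMA, which corrects background, normalises arrays and summarises probes, and deposited log2 values. Its version and the genome build are not given in any source used here. The 2 deposited tables held the same 284448 values, all with at most 1 decimal. Of 35556 probe sets, 24975 were gene probe sets with 1 symbol. Each of 21626 genes was represented by its brightest probe set, by mean of the 8 arrays, with no filter on dim genes. Each proteoglycan had 1 such probe set.

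Groups were compared with limma 3.58.1 in R 4.3.3 (lmFit, then eBayes, two-sided) and Benjamini-Hochberg adjustment over all genes, with calls at an adjusted p under 0.05. Within-array differences were tested by two-sided exact permutation over 70 assignments. Background was the median of 45 control probe sets on the same array. The fit was tested on simulated data. In each list of related genes the text names the 2 called genes with the largest rise and the 2 with the largest fall. For the lists of cell type markers it gives counts and summed levels, with only some markers named. For each proteoglycan the 3 genes nearest in profile were computed. Neighbouring genes, genes that mark sex and Tlr2 were added outside that rule. The members, lists and tests were chosen with earlier results of these data known. Alternatives were median centring, cyclic loess, centring on 1341 receptor genes, 32 intensity units added, a filter on the dimmest 30% of genes, another summary of probe sets (mean or dimmest), no X and Y genes, trend and robust eBayes, array weights (statmod 1.5.0), a block for the replicate number, leaving out each array, the median of markers and an adjusted p under 0.01, and Omd left out of the marker comparison was added after seeing the data. The number of arrays, 4 a group, limits the precision, and no scan date was used here, so no batch was tested. Sequences are from RefSeq (GRCm38.p6).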

Additional observations from a re-analysis of the deposited data

Results flagged for a closer look

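The difference Aspn minus Omd in normal mucosa sample 4 was -0.20, while it was -0.10 in each of the other 3 normal samples. It was the only 1 of 74 sets of 4 arrays in which the lowest or highest array stood apart from the others by more than Dixon's 95% critical value allows. The gap is a step of 0.1, the unit to which the values were rounded, and both genes were at or below background there. Chance gives about 1 such set in 20.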

How the results depend on the processing

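The 8 proteoglycans that rose kept their direction and their call in each of the 19 or 20 alternatives that could be fitted to them. Lum ranged from 4.21 to 5.03, Dcn from 4.22 to 4.72 and Bgn from 4.28 to 4.58 on the log2 scale. Several of these alternatives could not change a difference. Each proteoglycan had 1 probe set, so the mean and the dimmest probe set were the same values. The filter on dim genes, the removal of X and Y genes and the stricter threshold also kept the deposited values of the proteoglycans they held. Omd turned to 0.05 after cyclic loess (limma adjusted p 0.71) and to 0.03 after centring on receptor genes (adjusted p 0.873), and after median centring it was the 1 proteoglycan called lower, at -0.26 (adjusted p 0.0416). The number of genes called lower was 9272 with median centring, 3239 with cyclic loess, 1700 with receptor genes, 3180 without the dimmest 30% of genes (15135 genes tested) and 1912 at an adjusted p under 0.01, where 2376 were called higher. The median difference over all genes was -0.1 as deposited, -0.237 with median centring, -0.00559 with cyclic loess and 0.05 with receptor genes. With the marker median, 0 members passed against fibroblast markers and 6 against smooth muscle markers, and with Omd left out, added after seeing the data, 0 passed against fibroblast markers. With each array left out in turn, genes called higher numbered 2944 to 3966 (lowest without normal sample 3), genes called lower 2975 to 5456 (2975 without normal sample 4, 2976 without 1, 3004 without 3 and 3384 without adenocarcinoma 2), proteoglycans called higher 8 to 9 and lower 0 to 0, pairs passing 0 to 0, and members passing 0 to 7 against each marker mean. Deviations of same-numbered arrays correlated at -0.175, 0.095, 0.158 and 0.038. Differently numbered arrays were not compared, so these values cannot tell whether replicate numbers pair the samples. With the replicate number as a block, 8 proteoglycans were called higher, 0 lower, and 3578 genes higher and 4519 lower. Values near background limit what can be said of Omd, and of Lum and Aspn in normal mucosa. Except as named, the cause of these shifts was not tested.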

Other observations

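The genes whose profile over the 8 arrays was closest to each proteoglycan, by root mean square difference of the value minus the normal mucosa mean, are given as a description. For Bgn they were Igfbp7 (0.225), the matrix glycoprotein gene Sparc (0.235) and Fstl1 (0.272). For Dcn they were Pla2g7 (0.312), Fstl1 (0.33) and Lox (0.384), the last of which encodes a collagen cross-linking enzyme. Lum was closest to Ly6a (0.329), Mmp7 (0.343) and Serping1 (0.35). Aspn was closest to the smooth muscle actin gene Acta2 (0.316), then Hp (0.341) and Cald1 (0.402). For Ogn, Dpt (dermatopontin), used here as a fibroblast marker, was nearest at 0.419 and Synpo2, a smooth muscle marker, next at 0.498. Hspg2 was closest to 2310014H01Rik (0.112), Cxcr4 (0.117) and Bnc2 (0.122), Vcan to Slc43a3 (0.205) and the fibronectin receptor gene Itga5 (0.263), Prelp to Pltp (0.255), Nbl1 (0.263) and Frzb (0.272), and Fmod to Angptl4 (0.202).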
